A study of Rattus norvegicus with 24 samples.

Results

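Neurotrophic factors and their receptors were followed in the rat urethra after simulated vaginal delivery (SVD). The genes were chosen by symbol, and 7 of the 8 symbols were found in the table of normalized gene counts among 32883 genes. These were the ligands Nrg1, Bdnf, Ntf3 and Gdnf and the receptors Ntrk2, Ngfr and Ret, each with 1 row. Gfra1, which binds Gdnf and presents it to Ret, was not analysed here.

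Neurotrophic factors are secreted proteins that keep neurons and Schwann cells alive, guide axons and control myelination. Bdnf and Ntf3 are neurotrophins, which signal through Trk receptor kinases (Ntrk2 is the main receptor of Bdnf) and bind the shared receptor Ngfr, which carries a death domain. Gdnf signals through a membrane-anchored coreceptor and the kinase Ret, and Nrg1, a ligand of the EGF family, signals through the ErbB receptors. After a peripheral nerve is crushed, Schwann cells beyond the lesion are known to switch to a repair state in which several of these genes, Ngfr, Gdnf and Bdnf among them, are expressed more strongly. A continence muscle such as the external urethral sphincter is supplied by the pudendal nerve.

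All rats were 12-week-old virgin female Sprague-Dawley rats, labelled wild type, and all underwent SVD, which combines a crush of the pudendal nerve with distension of the vagina. At 1 h after SVD they received into the aorta either saline or 500000 mesoangioblasts (MABs), vessel-associated progenitors grown from hind-limb muscle of other rats and carrying a lentiviral eGFP and luciferase reporter (MABsallo), or such cells made to overexpress VEGF, whose vector also encodes a truncated CD34 (MABsallo-VEGF). Urethra was taken 3d or 7d later, with 4 rats in each of the 6 groups, and 2 of the MABsallo-VEGF rats at 7d (replicates 6 and 7) are labelled as recovered. No uninjured urethra was analysed here, and because donor and host are both rats, transcripts of injected cells and of the host cannot be told apart.

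Samples held 2170695 to 10166052 reads counted on genes (median 5246798), and 1 read was worth 1.67 to 9.23 normalized counts. The 4 MABsallo samples at 3d were the shallowest group, with 2170695 to 4491900 reads. The share of reads on genes named Metazoa_SRP also differed between samples. It was 0.0022% to 0.086% in MABsallo 3d, 0.0031% to 0.021% in MABsallo-VEGF 3d replicates 1 to 3 and 0.0043% in saline 3d replicate 6. In the other samples, MABsallo-VEGF 3d replicate 4 among them, it was 0% to 0.00013%. What part this difference between libraries had in the levels below was not tested. Markers of urothelium, of smooth muscle and of skeletal muscle were present, as the label urethra implies. Replicate 8 of saline 3d and replicate 2 of MABsallo-VEGF 3d stood apart: their urothelial and squamous markers (10 of 11 found) summed to 2117 and 3917 normalized counts, against 34518 to 143437 in the other 22 samples. Most of that sum is the keratin Krt15, with a mean of 55164 normalized counts over the 24 samples. Results that rest on these 2 samples are given with and without them. In whole tissue, fewer cells of a type and less RNA per cell cannot be told apart.

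Ntrk2 and Ngfr were well above the floor of 3 reads in all samples. Nrg1 and Ntf3 were above it in most samples, but Nrg1 was near it in MABsallo-VEGF 7d, at 3 to 9 reads. Bdnf, Gdnf and Ret were near it. Nrg1 and Ntf3 had more than 3 reads in 23 of 24 samples each, and Ntrk2 and Ngfr in all 24. Bdnf passed that floor in 16 samples, Gdnf in 11 and Ret in 11, and Gdnf had no read in 7 samples. Ret was at the floor in MABsallo-VEGF 3d, where the 4 samples held 0, 0, 1 and 2 reads. The floor covers counting error only, and levels are not compared between genes because no transcript lengths were used.

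**Figure D1:**
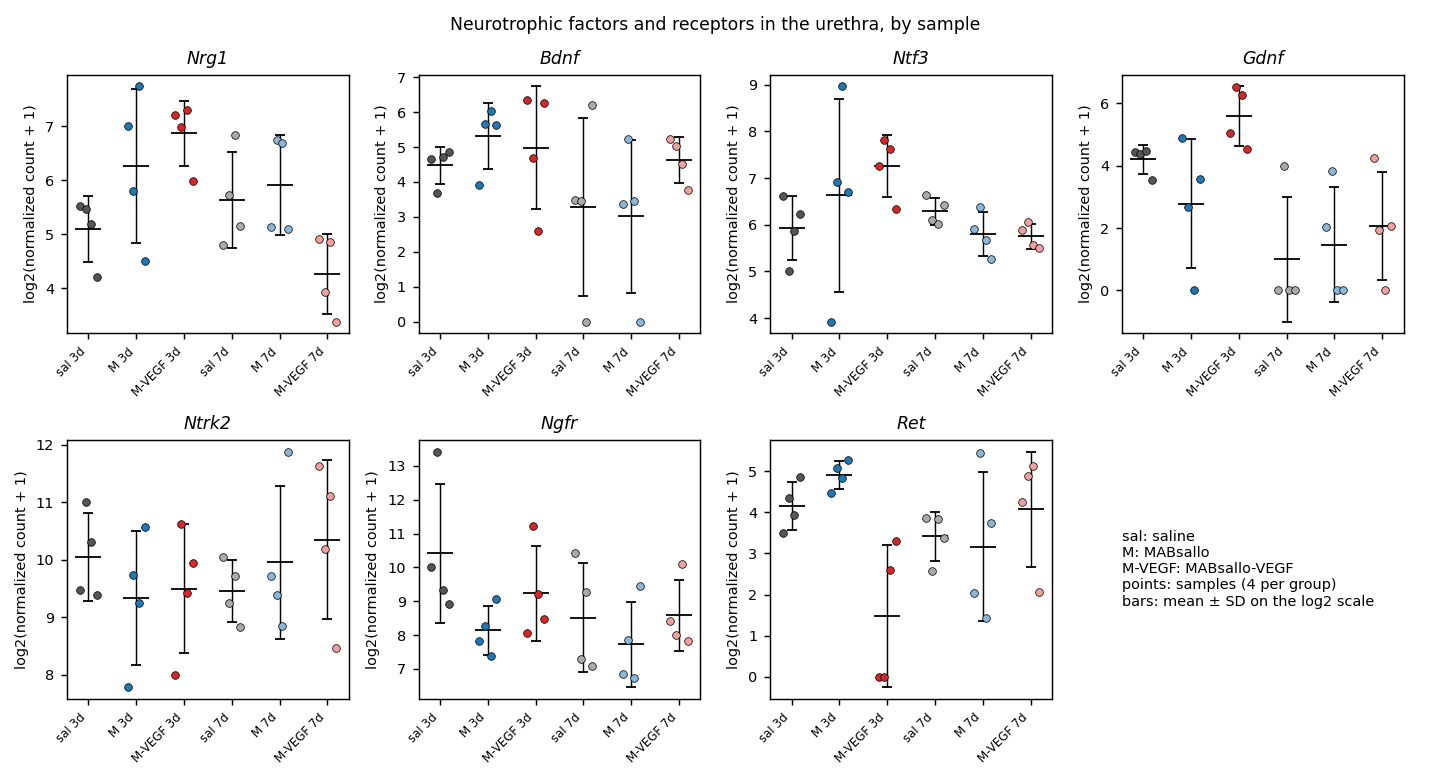
Normalized gene count of 7 neurotrophic genes in each of 24 samples on the scale log2(normalized gene count + 1), with the 6 groups on the horizontal axis (sal, saline; M, MABsallo; M-VEGF, MABsallo-VEGF) and bars for the mean ± SD of 4 samples. The 4 MABsallo-VEGF 3d samples lie above the 4 MABsallo-VEGF 7d samples for Nrg1, Ntf3 and Gdnf, and 1 saline 3d sample stands far above all others for Ngfr.

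Among the ligands, Nrg1, which directs Schwann cell survival and myelination, was the one gene of the 7 with a difference called under every alternative run, between 3d and 7d of MABsallo-VEGF. Values are given here and below in the order of the replicate numbers, which are 6, 8, 9 and 10 for saline 3d, 1 to 4 for both cell groups at 3d, 1, 2, 3 and 5 for saline 7d, 7.2, 9, 11 and 13 for MABsallo 7d and 6, 7, 11 and 12 for MABsallo-VEGF 7d. At 3d Nrg1 measured 44.8, 43.1, 35.7 and 17.6 normalized counts with saline, 127.8, 54.7, 212.3 and 21.7 with MABsallo, and 146.0, 125.0, 156.4 and 62.3 with MABsallo-VEGF. At 7d it measured 27.1, 52.3, 113.9 and 34.6 with saline, 34.1, 106.0, 101.8 and 33.2 with MABsallo, and 29.0, 14.3, 27.9 and 9.5 with MABsallo-VEGF. The MABsallo-VEGF group was thus the highest at 3d and the lowest at 7d, and its samples of the 2 days did not overlap. The mean was 122.4 ± 42.1 (SD, n = 4) at 3d and 20.2 ± 9.80 at 7d. Each of these samples held 14 to 31 reads of Nrg1 at 3d and 3 to 9 at 7d. On the log2(normalized gene count + 1) scale Nrg1 was higher at 3d by 2.59 (SE 0.65, limma adjusted p = 0.00682), a 6.04-fold difference on that scale. In this comparison 13.1% of the 16287 genes tested were differentially expressed genes (DEGs, adjusted p below 0.05 and log2 fold change beyond 1) that were higher at 3d, and 13.8% were higher without overlap. Nrg1 was a DEG in each of the 19 alternative settings run for this comparison, with log2 fold changes of 1.92 to 2.89. Nrg1 is a gene the study itself singled out on these samples, and its count is no independent evidence.

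The same day difference was not seen for Nrg1 in the other groups, at log2 0.35 (SE 0.65, limma adjusted p = 0.723) with MABsallo and -0.54 (SE 0.65, adjusted p = 0.713) with saline. The difference between the day effects of MABsallo-VEGF and saline was 3.13 (SE 0.92), rank 77 by p among 16287 genes, and did not pass adjustment over all of them (limma adjusted p = 0.494). At 3d all MABsallo-VEGF samples lay above all saline samples, as was so for 2.36% of genes in that direction, with a log2 difference of 1.77 (SE 0.65, limma adjusted p = 0.157). It was called with sample quality weights (adjusted p = 0.016), a setting that called 1497 of 16287 genes (9.19%) in place of 5, and without saline 3d replicate 6 and MABsallo-VEGF 3d replicate 4 (adjusted p = 0.0492). The saline and MABsallo groups at 3d overlapped, the highest and the lowest MABsallo sample being 212.3 and 21.7, with a log2 difference of 1.16 (SE 0.65, limma adjusted p = 0.224). At 7d every MABsallo-VEGF sample lay below every MABsallo sample, as was so for 1.09% of genes, with a log2 difference of -1.64 (SE 0.65), and the limma adjusted p was 1. Ordered by group mean, Nrg1 ran from MABsallo-VEGF 3d through MABsallo 3d, MABsallo 7d, saline 7d and saline 3d to MABsallo-VEGF 7d, and only the last 2 neighbours differed by more than 1 SD.

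Gdnf, a survival factor of motor and sensory neurons, had its highest group mean in MABsallo-VEGF 3d, but at few reads. At 3d it measured 20.7, 19.6, 21.4 and 10.6 normalized counts with saline, 28.4, 5.5, 0 and 10.8 with MABsallo, and 32.4, 91.7, 75.7 and 22.3 with MABsallo-VEGF. The values at 7d were 0, 14.9, 0 and 0 with saline, 3.1, 13.2, 0 and 0 with MABsallo, and 18.1, 2.9, 0 and 3.2 with MABsallo-VEGF. The MABsallo-VEGF 3d samples, with 5 to 15 reads each, lay above every sample of MABsallo-VEGF 7d and of saline 3d, and the lowest of them was below the highest MABsallo 3d sample. The means were 55.5 ± 33.4 and 6.04 ± 8.19 (SD, n = 4) for MABsallo-VEGF at 3d and 7d, a log2 difference of 3.54 (SE 1.11, limma adjusted p = 0.0274). Gdnf was a DEG there in 11 of 19 alternative settings, the adjusted p running from 0.00571 to 0.105, and it was not one with edgeR (adjusted p = 0.0515) or without MABsallo-VEGF 3d replicate 2 (adjusted p = 0.0823), the sample low in urothelial markers.

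Saline samples also held more Gdnf at 3d, by 3.21 on the log2 scale (SE 1.11, limma adjusted p = 0.108), and the 1 saline 7d sample with reads overlapped the 3d range. Without that sample, replicate 2, the difference was 4.21 (limma adjusted p = 0.0496), with 1.72% of all genes called. The saline 7d samples left then held no read of Gdnf, so the size of this difference depends on the 1 added before the log. At 3d Gdnf differed between MABsallo-VEGF and saline by 1.39 (SE 1.11, limma adjusted p = 0.542), with no overlap, and between MABsallo-VEGF and MABsallo by 2.81 (SE 1.11, limma adjusted p = 0.715), with overlap. Its group means at 7d, 3.73 to 6.04 normalized counts, lay within 1 SD of their neighbours.

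Because Gdnf and its receptor Ret are ligand and receptor of 1 system and were called in opposite directions between the days in MABsallo-VEGF, the 250 bases before the start of each are shown, from RefSeq on GRCr8 (the reads were aligned to Rnor6.0). The Gdnf window is chr2:58621077-58621326 on the plus strand and the Ret window is chr4:153040557-153040806 on the minus strand. Both were searched on both strands for 5 motifs, and matches are in capitals. The core of a cAMP response element was searched as CGTCA. For a TATA box the letters were TATAAA. A further motif was the CCAAT box, given by its letters. A GC box was searched as GGGCGG, which binds Sp family factors. The E-box was searched in the form CACGTG.
Gdnf: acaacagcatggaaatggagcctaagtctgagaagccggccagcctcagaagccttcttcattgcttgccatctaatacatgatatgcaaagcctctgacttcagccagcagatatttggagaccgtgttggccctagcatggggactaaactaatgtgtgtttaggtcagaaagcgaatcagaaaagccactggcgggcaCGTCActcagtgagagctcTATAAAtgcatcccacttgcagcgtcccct
Ret: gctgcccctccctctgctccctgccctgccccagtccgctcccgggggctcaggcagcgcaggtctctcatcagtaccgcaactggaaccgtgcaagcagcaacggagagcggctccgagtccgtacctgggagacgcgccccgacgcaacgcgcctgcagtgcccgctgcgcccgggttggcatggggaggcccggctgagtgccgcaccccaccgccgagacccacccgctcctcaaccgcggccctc
The Gdnf window held 1 cAMP element core, whose first base lies 49 bases before the start, and 1 TATA box, 30 bases before it, and none of the others, with a GC content of 49.6%. Neither overlaps the other. The Ret window held none of the 5 motifs and had a GC content of 72.8%. Over 33469 rat promoters of the same length, the cAMP element core was found in 18.2%, the TATA box in 12.9%, the CCAAT box in 34.0%, the GC box in 30.5% and the E-box in 5.59%, and the median GC content was 51.2%. A match is a run of letters, and nothing was measured here about binding.

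Ntf3, a neurotrophin of proprioceptive neurons and Schwann cells, differed between the days of MABsallo-VEGF with the same sign as Nrg1, but was not called by limma. The 3d values were 96.4, 31.4, 57.2 and 73.9 normalized counts with saline, 14.2, 120.4, 498.5 and 103.1 with MABsallo, and 151.4, 225.0, 196.8 and 80.1 with MABsallo-VEGF. Those at 7d were 98.1, 67.2, 63.6 and 84.9 with saline, 58.9, 82.8, 50.04 and 37.4 with MABsallo, and 58.0, 65.6, 46.5 and 44.1 with MABsallo-VEGF. All MABsallo-VEGF 3d samples were above all MABsallo-VEGF 7d samples, while the MABsallo 3d samples spanned the lowest and the highest value of the series. For MABsallo-VEGF the log2 difference between the days was 1.51 (SE 0.66, limma adjusted p = 0.109), and Ntf3 was a DEG in 3 of 19 alternative settings, DESeq2 among them (1.60, adjusted p = 0.0286). DESeq2 also called Ntf3 between the days with MABsallo (1.65, adjusted p = 0.0175), where limma gave 0.82 (SE 0.66, adjusted p = 0.367). Against saline at 3d, Ntf3 was higher by 1.33 in MABsallo-VEGF (SE 0.66, limma adjusted p = 0.289) and by 0.70 in MABsallo (SE 0.66, adjusted p = 0.487), with overlap in both.

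Bdnf, the neurotrophin that activates Ntrk2, was spread over most of its range within single groups. Values at 3d were 24.1, 11.8, 25.0 and 28.2 normalized counts with saline, 14.2, 49.2, 64.6 and 48.8 with MABsallo, and 81.1, 25.0, 5.0 and 75.7 with MABsallo-VEGF. At 7d it measured 10.1, 9.96, 0 and 72.3 with saline, 9.3, 36.4, 10.01 and 0 with MABsallo, and 36.3, 31.4, 21.7 and 12.6 with MABsallo-VEGF. No pair of groups compared was free of overlap. The largest of its 9 differences between groups was 2.30 on the log2 scale, between 3d and 7d with MABsallo (SE 1.09, limma adjusted p = 0.116), with group means of 44.2 and 13.9. All neighbours in the order of its group means, from 46.7 in MABsallo-VEGF 3d to 13.9 in MABsallo 7d, lay within 1 SD of each other.

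Of the receptors, Ret, the kinase that Gdnf signals through, was the one called by limma, at very few reads. At 3d it measured 10.3, 19.6, 14.3 and 28.2 normalized counts with saline, 21.3, 32.8, 27.7 and 38.0 with MABsallo, and 0, 0, 5.0 and 8.9 with MABsallo-VEGF. The 7d values were 13.5, 5.0, 13.4 and 9.4 with saline, 3.1, 43.0, 1.7 and 12.5 with MABsallo, and 18.1, 28.5, 34.1 and 3.2 with MABsallo-VEGF. The MABsallo-VEGF 3d samples lay below all samples of the other 3d groups, and below 3 of the 4 MABsallo-VEGF 7d samples. In reads, MABsallo-VEGF 3d held 3 in all, against 20 in saline 3d, 19 in MABsallo 3d and 27 in MABsallo-VEGF 7d.

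Per read counted on genes, Ret was 5.07 times as high in saline 3d as in MABsallo-VEGF 3d (95% exact binomial interval 1.502 to 26.6), 7.08 times as high in MABsallo 3d (2.08 to 37.3) and 5.73 times as high in MABsallo-VEGF 7d (1.76 to 29.5), intervals that cover counting error only. In the fit, Ret was lower by 2.61 on the log2 scale at 3d than at 7d with MABsallo-VEGF (SE 0.89, limma adjusted p = 0.0412), where 2.24% of all genes tested were DEGs lower at 3d. It was a DEG in 8 of 19 alternative settings, and not with edgeR (adjusted p = 0.0793), DESeq2 (adjusted p = 0.111) or without the samples low in urothelial markers (-2.11, limma adjusted p = 0.142). Against MABsallo at 3d the log2 difference was -3.45 (SE 0.89, limma adjusted p = 0.311), rank 37 by p among 16287 genes, and against saline it was -2.69 (SE 0.89, adjusted p = 0.131). Neither pair of groups overlapped, as was so for 0.774% and 1.64% of genes in that direction. The difference from saline was called with sample quality weights (adjusted p = 0.0297, with 9.19% of all genes called), without saline 3d replicate 6 and MABsallo-VEGF 3d replicate 4 (adjusted p = 0.0178) and without MABsallo-VEGF 3d replicate 4 alone (adjusted p = 0.0289, with 1258 of 16289 genes called, 7.72%). The other group means of Ret, 10.3 to 29.9, were within 1 SD of their neighbours in order.

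**Figure D2:**
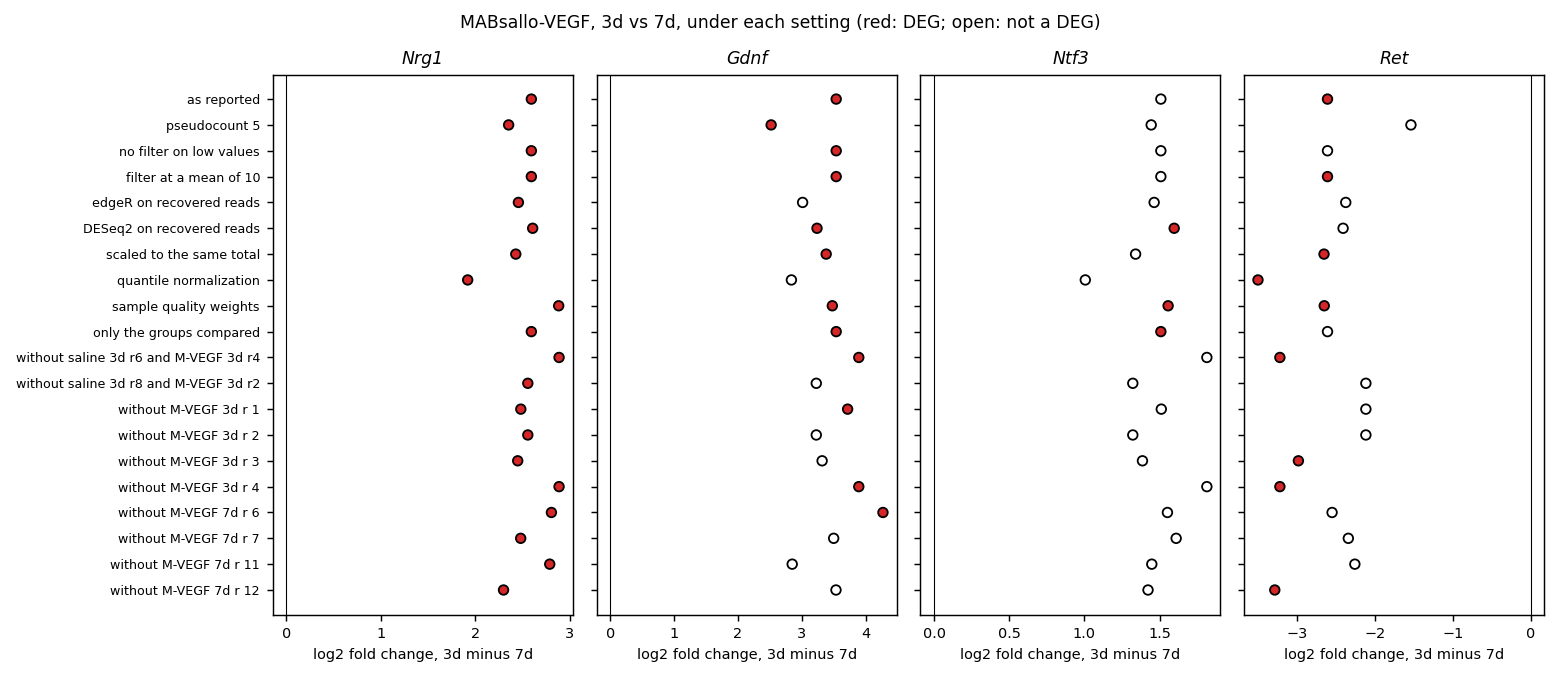
Log2 fold change between 3d and 7d in MABsallo-VEGF (M-VEGF) rats for Nrg1, Gdnf, Ntf3 and Ret under the reported setting and 19 alternatives, 1 per row, where r stands for replicate and red points are DEGs. Nrg1 is red in every row, Gdnf in 11, Ntf3 in 3 and Ret in 8 of the 19 alternatives, and no point crosses 0.

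Ngfr, the shared neurotrophin receptor that marks immature and repair Schwann cells, was dominated by single samples. At 3d it measured 1030, 11002, 647 and 482 normalized counts with saline, 227, 306, 166 and 537 with MABsallo, and 265, 2384, 590 and 356 with MABsallo-VEGF. At 7d it measured 1380, 154, 613 and 135 with saline, 115, 232, 105 and 697 with MABsallo, and 341, 254, 1108 and 224 with MABsallo-VEGF. The highest and the second highest sample of the series, saline 3d replicate 8 and MABsallo-VEGF 3d replicate 2, are the ones that were low in urothelial markers. Their Schwann cell markers (11 of 12 found) summed to 37691 and 19261 normalized counts, against 9724 to 11986 and 7088 to 11416 in the other samples of their groups. MABsallo-VEGF 7d replicate 11, the highest of its group for Ngfr, had a Schwann cell sum of 65924, against 6724 to 13788 in the others. Of that list Fabp7 stayed at or under 3 reads in every sample. What part the makeup of these samples had in Ngfr was not tested.

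Between MABsallo and saline at 3d, Ngfr differed by -2.28 on the log2 scale (SE 0.89, limma adjusted p = 0.0806), so no neurotrophic gene of the 7 was a DEG in a comparison where 12.3% of all genes were. With edgeR and DESeq2 Ngfr was 1, at -3.50 (adjusted p = 0.0342) and -3.41 (adjusted p = 0.00733). Without saline 3d replicate 8 the difference was -1.28 (limma adjusted p = 0.356), and the groups overlapped with or without it. The saline difference between 3d and 7d was 1.91 (SE 0.89, limma adjusted p = 0.244) with that sample and 0.91 (adjusted p = 0.548) without it. All neighbouring group means of Ngfr were within 1 SD, from 3290 in saline 3d to 287 in MABsallo 7d. In MABsallo vs saline at 3d, with all samples, the 10 Schwann cell markers tested had a median log2 fold change of -1.40. Over all genes it was 0.07. Of the 10, 0 were higher with MABsallo and 0 were DEGs. The part of this difference in the level of Ngfr was not tested.

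Ntrk2, the Bdnf receptor, varied about as much within groups as between them. At 3d it measured 706, 2050, 1272 and 672 normalized counts with saline, 220, 848, 609 and 1524 with MABsallo, and 254, 1584, 681 and 984 with MABsallo-VEGF. At 7d it measured 1052, 605, 841 and 453 with saline, 843, 669, 459 and 3768 with MABsallo, and 3170.5, 1167, 2216 and 353 with MABsallo-VEGF. Every pair of groups overlapped, and its 9 differences between groups ran from -0.85 to 0.89 on the log2 scale with an SE of 0.69, none of them at a limma p below 0.05. The highest samples of the 7d cell groups also held the most fibroblast markers (7 of 7 found): these summed to 620865 normalized counts in MABsallo 7d replicate 13, against 242753 to 268382 in the others of its group, and to 954318 and 590278 in MABsallo-VEGF 7d replicates 6 and 11, against 194207 and 216782. Their part in the level of Ntrk2 was not tested.

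**Figure D3:**
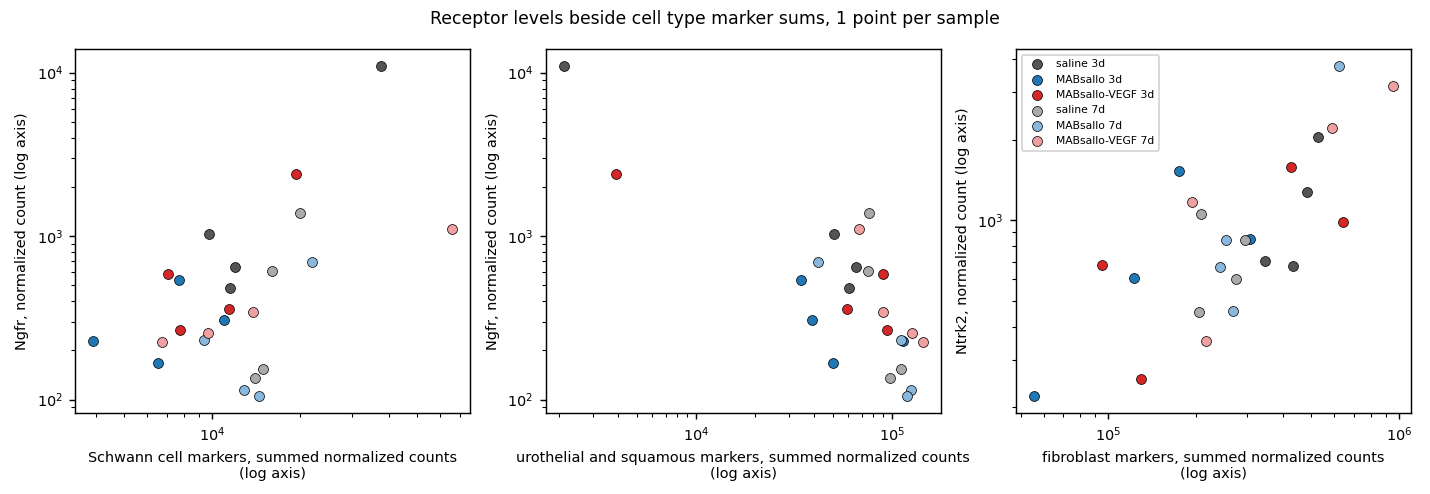
Normalized gene count of Ngfr against the summed Schwann cell markers (left) and the summed urothelial and squamous markers (middle), and of Ntrk2 against the summed fibroblast markers (right), 1 point per sample coloured by group, all on log axes. The saline 3d sample with 11002 Ngfr counts and the MABsallo-VEGF 3d sample with 2384 are the ones whose urothelial sums are 2117 and 3917.

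Across the 9 comparisons between groups the 7 genes gave 63 tests, and with the interactions of day with each cell treatment 77. Of the 77, 16 had a limma p below 0.05 and 3 were DEGs, all between 3d and 7d with MABsallo-VEGF (Nrg1, Gdnf and Ret), where 15.3% of all genes tested were DEGs. There edgeR called 1 of the 7 and DESeq2 called 3 (Nrg1, Gdnf and Ntf3). The median log2 fold change of the 7 was 0.66, against 0.05 over all genes tested. In MABsallo-VEGF vs saline at 3d limma called 0 of 7 (2 with p below 0.05, 0 by edgeR and 0 by DESeq2), with 0.0307% of all genes called, and in MABsallo-VEGF vs MABsallo at 3d likewise 0 (2 with p below 0.05, 0 by either tool), with 0.00614%. At 7d limma, edgeR and DESeq2 each called 0 of 7 in all comparisons of treatments (0, 1 and 1 with a limma p below 0.05), and limma called 0% of all genes. Between 3d and 7d limma called 0 of 7 with saline (2 with p below 0.05, 0 by either other tool, 3.19% of all genes called) and 0 of 7 with MABsallo (1 with p below 0.05, 0 by edgeR and 1 by DESeq2, 23% of all genes called). In both interactions limma, edgeR and DESeq2 each called 0 of 7 (0 and 2 with a limma p below 0.05), and limma called 0% of all genes. Comparisons that share a group of samples are not independent of each other.

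The other tools called different shares of all genes, against which their counts of the 7 are to be read. At 3d edgeR called 5.29% higher and 2.95% lower in MABsallo vs saline and DESeq2 8.65% and 3.14%. In MABsallo-VEGF vs saline edgeR called 0.00614% and 0%, DESeq2 2.24% and 0.196%, and limma 11.4% and 2.19% without saline 3d replicate 6 and MABsallo-VEGF 3d replicate 4. Both tools called 0% in MABsallo-VEGF vs MABsallo at 3d and in MABsallo vs saline at 7d. At 7d DESeq2 called 0.0368% and 0.123% in MABsallo-VEGF vs saline and 0% and 0.0246% in MABsallo-VEGF vs MABsallo, edgeR 0% in both. Between the days edgeR called 5.18% and 0.89% with saline, 15.9% and 8.05% with MABsallo and 13.2% and 2.72% with MABsallo-VEGF, where DESeq2 called 7.15% and 1.36%, 17.1% and 5.79%, and 15.1% and 2.27%. In the interactions DESeq2 called 0.301% and 0.178% for MABsallo and 0.00614% and 0% for MABsallo-VEGF, edgeR 0%, and limma 3.16% and 0.436% for MABsallo-VEGF without the same pair of samples. Shares of genes without overlap in the comparisons not given above were 9.44% higher and 5.22% lower in MABsallo vs saline at 3d, 3.24% and 1.63% at 7d, 2.92% and 3.12% in MABsallo-VEGF vs saline at 7d, 5.65% and 4.92% between the days with saline and 17.7% and 9.33% with MABsallo, where none of the 7 genes was free of overlap. The shares in the opposite directions to those given for the genes above were 0.853% and 0.743% for MABsallo-VEGF vs MABsallo at 3d and 7d, and 8.01% between the days with MABsallo-VEGF.

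**Figure D4:**
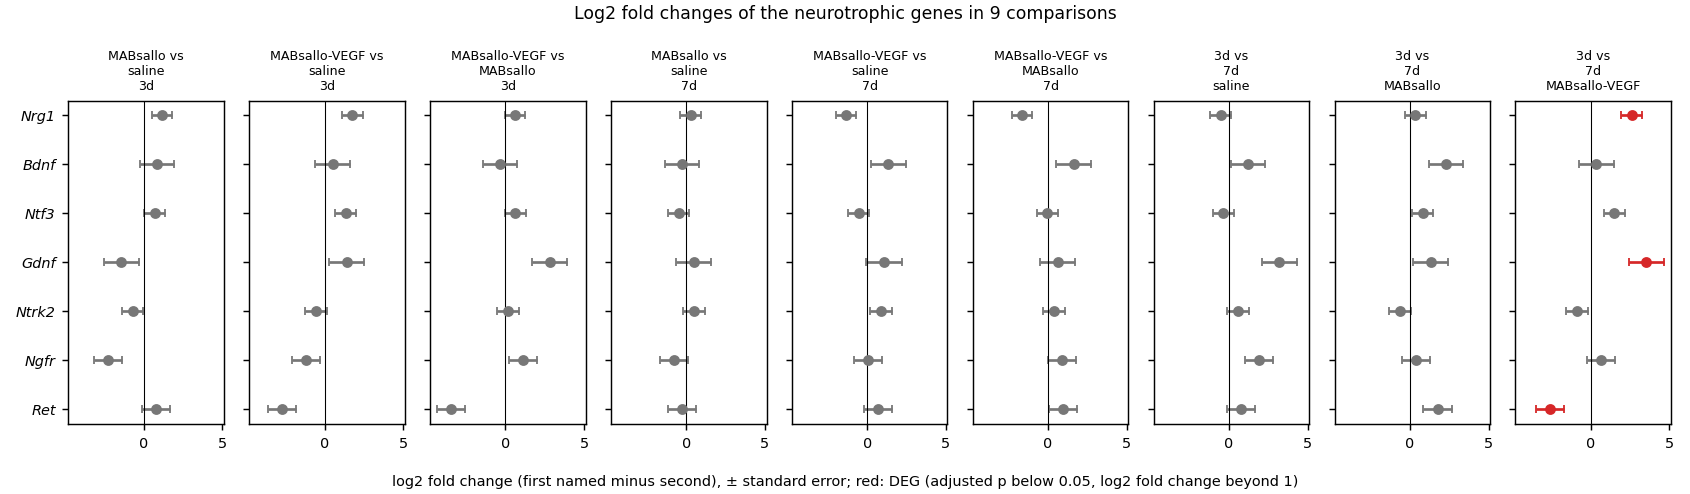
Log2 fold change (first named minus second named group) with its standard error for 7 genes in 9 comparisons of groups of 4 samples, from limma on log2(normalized gene count + 1). Red points, which are DEGs, appear only in the panel of 3d vs 7d for MABsallo-VEGF, at 2.59 for Nrg1, 3.54 for Gdnf and -2.61 for Ret.

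The patterns of 5 of the genes over the 24 samples were set beside those of 12755 genes with a mean of at least 20 normalized counts. By Pearson's r of the log2 values, Ngfr was most like Qprt (0.879), Tafa5 (0.878) and the myelin enzyme gene Cnp (0.876). Ntrk2 was most like AABR07044388.2 (0.849), Pappa2 (0.830) and Htra3 (0.808), and Nrg1 most like RGD1304884 (0.768), Numb (0.752) and Nsmaf (0.736). Bdnf was most like RGD1309730 (0.809), Atp2b4 (0.784) and Trmt1l (0.733), and Ntf3 most like AY172581.2 (0.839), Itgal (0.778) and SNORA62 (0.774). These are descriptions over samples that share groups and depth, with the 3 highest of all genes shown. Gdnf and Ret had means below 20 and were not set beside others.

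The other genes of these pathways gave calls between the days in all 3 treatments, and between treatments in MABsallo vs saline at 3d. They were grouped as ligands (16 tested), receptors and coreceptors (20), processing enzymes of the factors (15), adaptors of the receptors (25) and response genes (18), 94 in all. Between 3d and 7d, 4 of the 94 were DEGs higher and 1 lower with saline (2.59% and 0.602% of all genes tested), 13 higher and 9 lower with MABsallo, and 11 higher and 8 lower with MABsallo-VEGF (13.1% and 2.24% of all genes). With MABsallo, 6 receptors were DEGs higher at 3d and 2 lower, 4 adaptors were higher and 2 lower, 2 response genes were higher and 1 lower, 1 processing gene was higher and 3 lower, and 1 ligand was lower, where 17% of all genes tested were DEGs higher at 3d and 6.05% lower. With MABsallo-VEGF, 4 receptors were higher and 1 lower, 3 adaptors higher and 3 lower, 2 response genes higher and 2 lower, 1 processing gene higher and 2 lower, and 1 ligand higher. The median log2 fold changes of the 5 groups of genes in that comparison ran from -0.40 for processing to 0.38 for receptors, against 0.05 over all genes. Without saline 3d replicate 8 and MABsallo-VEGF 3d replicate 2, 8 of the 94 were higher and 6 lower with MABsallo-VEGF (receptors 2 and 0), where 11% and 1.68% of all genes were called.

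Of the receptors called between the days, Egfr, Lifr and Il6st were among those higher at 3d, and Cntfr, Gfra2 and Gfra3 were lower. Gfra2 and Gfra3 are named after their values were seen. Gfra2 was lower with MABsallo (-1.34, SE 0.38, limma adjusted p = 0.0101, called in 16 of 17 alternatives). Gfra3 was lower with MABsallo-VEGF (-1.92, SE 0.59, limma adjusted p = 0.0249, called in 12 of 19). Egfr, an ErbB kinase, measured 179.0 to 915.9 normalized counts in MABsallo 3d and 6.6 to 18.3 in MABsallo 7d, a log2 difference of 5.05 (SE 0.88, limma adjusted p = 0.000296). In MABsallo-VEGF it measured 221.7, 391.7, 327.9 and 35.6 at 3d and 7.3 to 25.7 at 7d (3.53, SE 0.88, adjusted p = 0.00672), and no sample overlapped in either group. Saline 3d replicate 6 held 185.9, against 3.9 to 17.9 in the other saline 3d samples, and MABsallo exceeded saline at 3d by 4.45 (SE 0.88, limma adjusted p = 0.00665). Lifr, a receptor of leukemia inhibitory factor, gave 336.3 to 795.2 in MABsallo 3d and 9.3 to 54.0 at 7d (4.68, SE 0.82, limma adjusted p = 0.000292). Il6st, the subunit shared by that family, was higher at 3d in all 3 treatments, by 1.61 with saline (SE 0.39, adjusted p = 0.0243), 1.71 with MABsallo (SE 0.39, adjusted p = 0.00202) and 2.51 with MABsallo-VEGF (SE 0.39, adjusted p = 0.000233), all by limma. The saline call of Il6st was lost without saline 3d replicate 6 and MABsallo-VEGF 3d replicate 4 (1.27, adjusted p = 0.107). Cntfr, the receptor subunit for ciliary neurotrophic factor, was lower at 3d with MABsallo (log2 difference -2.97, SE 0.63, limma adjusted p = 0.00128) and was called in 17 of 17 alternatives.

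Erbb2, the coreceptor that carries Nrg1 signals with Erbb3, had 25, 13, 14 and 0 reads in the MABsallo 3d samples and 0 in each saline 7d and MABsallo 7d sample. It was at least 34.3-fold higher in MABsallo at 3d than at 7d, against a floor of 3 reads over the group (limma adjusted p = 0.00351, called in 17 of 17 alternatives), and without MABsallo 7d replicate 11 at least 21.3-fold higher. Erbb3, named after its values were seen, measured 1128.9, 733.1, 673.9 and 504.5 normalized counts in MABsallo 3d and 393.4, 311.3, 248.6 and 556.1 in MABsallo 7d. The groups overlapped, and the log2 difference of 1.01 (SE 0.33, limma adjusted p = 0.0232) was called in 10 of 17 alternatives. With MABsallo-VEGF the Erbb3 difference was 0.33 (SE 0.33, limma adjusted p = 0.524).

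Adaptors and feedback genes of receptor kinases were among those called. Gab1, a docking protein of such kinases, had 90, 46, 28 and 13 reads in MABsallo 3d and 0 in every MABsallo 7d sample, which makes it at least 116.8-fold higher against a floor of 3 reads over the group (limma adjusted p = 8.22e-05). That limit was 75.5-fold without MABsallo 3d replicate 1 and 72.6-fold without MABsallo 7d replicate 11. Spred1, an inhibitor of Ras signalling, was higher at 3d by 4.63 with MABsallo (SE 1.08, limma adjusted p = 0.00258) and by 5.28 with MABsallo-VEGF (SE 1.08, adjusted p = 0.00158). Rgs2, a regulator of G protein signalling, was higher at 3d by 3.85 with MABsallo (SE 0.72, limma adjusted p = 0.000507) and by 3.24 with MABsallo-VEGF (SE 0.72, adjusted p = 0.00305). Gab1 with MABsallo-VEGF was higher by 4.12 (SE 1.15, limma adjusted p = 0.0134) and Gab2, its relative, by 3.39 (SE 0.99, adjusted p = 0.0182), Gab2 at 7 reads or fewer in each sample of both MABsallo-VEGF days. Arc, an activity-induced gene, was lower at 3d with MABsallo-VEGF (log2 difference -3.12, SE 1.03, limma adjusted p = 0.0355), and it was called in 10 of 19 alternatives. Without the samples low in urothelial markers Gab2 differed by 3.04 (limma adjusted p = 0.056) and Arc by -2.50 (adjusted p = 0.129).

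Against saline at 3d, MABsallo gave 6 DEGs higher and 5 lower among the 94 genes of these groups. Of all genes tested, 9.4% were DEGs higher and 2.86% lower. These calls come from the fit of all 6 groups, which called 1997 of 16287 genes. With only the 2 groups compared in the fit, 5 of 16474 genes were called. Spred1 (4.46, SE 1.08, limma adjusted p = 0.0128), Gab1 (4.16, SE 1.15, adjusted p = 0.0203), Gab2 (3.74, SE 0.99, adjusted p = 0.0177) and Rgs2 (2.96, SE 0.72, adjusted p = 0.0131) were higher, beside Egfr. Cntfr was lower (log2 difference -2.68, SE 0.63, adjusted p = 0.0117), at 7.1, 32.8, 9.2 and 16.3 normalized counts with MABsallo against 24.1, 203.8, 100.1 and 154.8 with saline, so that 1 saline sample overlapped. Of 19 alternatives, Egfr was called in 18, Spred1, Rgs2 and Cntfr in 16 each, Gab2 in 15 and Gab1 in 14. Without the samples low in urothelial markers 1 gene of the 94 was higher, Egfr (3.79, limma adjusted p = 0.032), and 1 lower, Bex3, an Ngfr-associated protein named after its values were seen (-1.08, adjusted p = 0.0489), where 2.18% and 0.475% of all genes were called. In that setting Spred1 differed by 4.21 (limma adjusted p = 0.0531), Gab2 by 3.31 (0.0768), Gab1 by 2.93 (0.104), Rgs2 by 2.09 (0.0635) and Cntfr by -2.31 (0.0556), all with the same sign as before. MABsallo-VEGF vs saline at 3d gave 0 DEGs among the 94 by limma (14 with p below 0.05, 0 by edgeR and 1 by DESeq2), and MABsallo-VEGF vs MABsallo at 3d gave 0 (3 with p below 0.05, 0 by either tool). The treatment comparisons at 7d gave 0 each by limma, edgeR and DESeq2, with 4 to 6 genes at a limma p below 0.05.

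Gap43, a growth cone protein of regrowing axons and of repair Schwann cells, was higher at 3d in each of the 3 treatments. Saline samples held 1567, 1866, 1780 and 1408 normalized counts at 3d and 430, 204, 67.0 and 384 at 7d, without overlap. It was higher at 3d by 2.91 with saline (SE 0.43, limma adjusted p = 0.00233), 2.06 with MABsallo (SE 0.43, adjusted p = 0.00118) and 2.21 with MABsallo-VEGF (SE 0.43, adjusted p = 0.00112). In saline rats Ncam1, an adhesion molecule that is also a Gdnf receptor (1.48, SE 0.39, limma adjusted p = 0.0369), and Adam19, a protease that sheds Nrg1 (1.77, SE 0.48, adjusted p = 0.0411), were also higher at 3d, and Junb was lower (log2 difference -1.32, SE 0.25, adjusted p = 0.00938). Adam19 was higher at 3d also with MABsallo (3.59, SE 0.48, limma adjusted p = 6.17e-05) and MABsallo-VEGF (2.91, SE 0.48, adjusted p = 0.000371). Junb, a transcription factor subunit induced by growth signals, was lower in both as well (-1.34, SE 0.25, limma adjusted p = 0.000423, and -1.29, SE 0.25, adjusted p = 0.000883). Ncam1 and Adam19 lost the saline call without saline 3d replicate 6 and MABsallo-VEGF 3d replicate 4 (1.23, limma adjusted p = 0.139, and 1.33, adjusted p = 0.146), a setting in which 0.129% of all genes were called higher and 0.0614% lower, against 2.59% and 0.602% with all samples. With only the 2 saline groups in the fit, 0 of 15726 genes were called, so no saline call between the days held there. The fit of all 6 groups called 520 of 16287. The summed repair Schwann cell markers (10 of 10 found, Gap43 and Ncam1 among them) ran from 5290 to 10501 normalized counts over the 12 samples of 3d and from 2429 to 6592 over the 12 of 7d. Of the 10, 8 were higher at 3d with saline, 6 with MABsallo and 6 with MABsallo-VEGF, and the rest were not. The largest part of the sum is Jun, with a mean of 2354 normalized counts over the 24 samples.

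**Figure D5:**
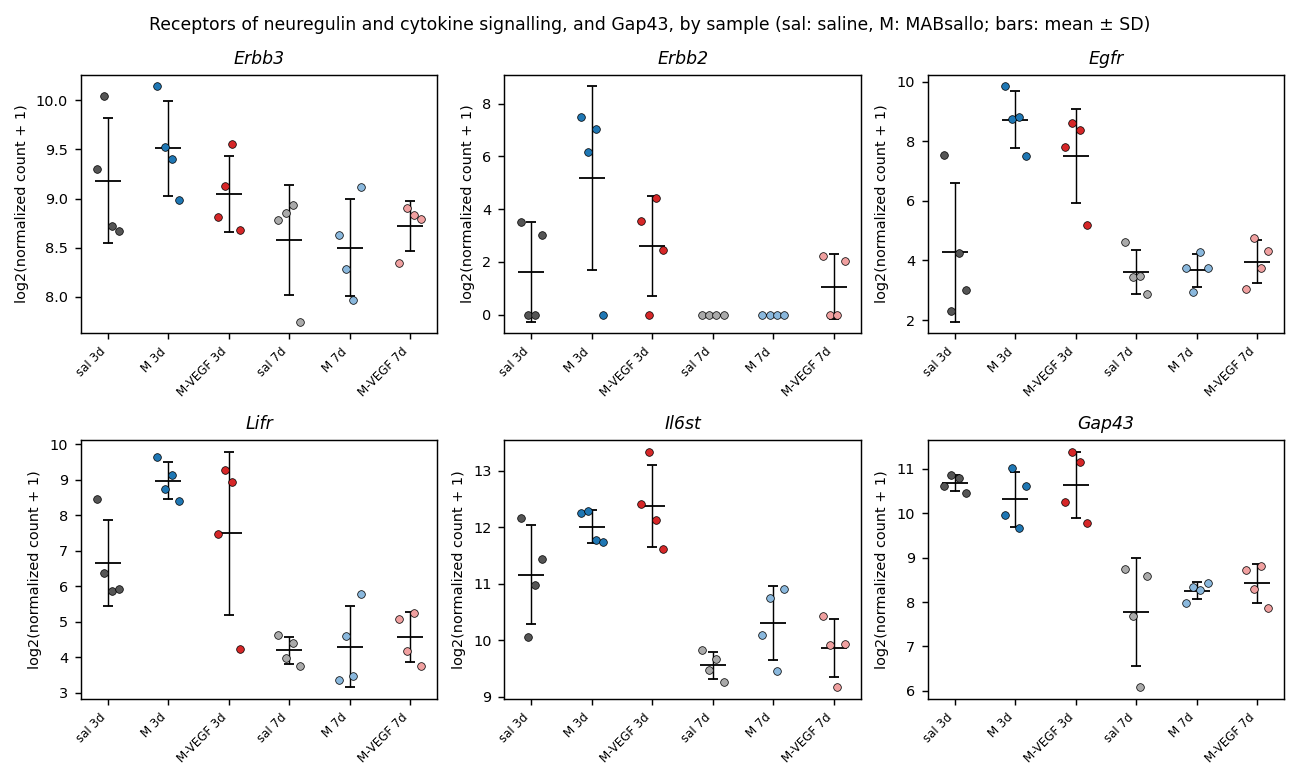
Normalized gene count of Erbb3, Erbb2, Egfr, Lifr, Il6st and Gap43 in each sample on the log2(normalized gene count + 1) scale, by group (sal, saline; M, MABsallo; M-VEGF, MABsallo-VEGF), with bars for the mean ± SD of 4 samples. Gap43 is higher at 3d in all 3 treatments without overlap, while Egfr lies between 179.0 and 915.9 in 7 of the 8 cell-treated 3d samples, at 35.6 in the other, and at 185.9 in 1 saline 3d sample.

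Sort1, a coreceptor that binds the precursors of neurotrophins with Ngfr, ran from 983.5 to 2292.6 normalized counts at 3d and from 1577.0 to 3518.0 at 7d, and was a DEG in no comparison. Markers of peripheral neurons and axons (17 of 17 found, Chat at 0) included Uchl1, Prph and Stmn2.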

How the data were processed

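Urethral RNA of 24 rats was sequenced by the authors as QuantSeq 3′ libraries with 50-base single reads. After trimming (fastq-mcf), the authors placed reads on the Rnor6.0 genome by HISAT2. They kept uniquely placed reads, tallied them by gene in HTSeq and divided by size factors of DESeq2, so the deposited signal is a normalized gene count. Versions of HISAT2 and DESeq2 are not given in the sources used here. Reads were recovered from the steps of the values (100% whole within 0.001 reads), 2170695 to 10166052 per sample. Groups and replicates came from the labels.

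The test was limma 3.58.1 (trend, R 4.3.3) of log2(normalized gene count + 1), 6 groups in 1 fit, two-sided, Benjamini-Hochberg over 16287 genes with a mean of at least 2. A DEG passed 0.05 after adjustment and differed by more than 1 on the log2 scale. The study used DESeq2 with fold changes shrunken by ashr. DESeq2 (1.42.0, without shrinkage, so its fold threshold is not that of the study) and edgeR 4.0.16 (quasi-likelihood, TMM) were run here on the recovered reads. With n = 4 rats per group, p-values measure the spread between rats. The scripts were tested on simulated data.

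Other alternatives changed the pseudocount (to 5), the filter (none, or 10), the scaling (same total, or quantile), the weights (by sample quality) or the samples fitted (the pair of groups alone), blocked on the replicate number, or left out samples: saline 3d replicate 6 with MABsallo-VEGF 3d replicate 4 (which the study's plots of single genes do not show, as matched in an earlier analysis of these data), and each sample in turn. Leaving out the 2 samples low in urothelial genes was chosen after seeing the data. The neurotrophic genes and the lists were chosen with earlier results of these data known. Beyond the 7 genes, named genes were at most 6 DEGs per comparison by fold change (the 3 of each list with the highest counts are not ranked here, for want of lengths), with 3 most alike genes by Pearson's r. Exceptions are stated.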

Additional observations from a re-analysis of the deposited data

Results flagged for a closer look

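Of 42 sets of 4 samples (7 genes in 6 groups), 7 had a sample whose gap to its nearest neighbour was over 0.83 of the range of the group. Chance gives this in about 1 of 20 sets of normally distributed values. The normalized counts were screened without a log, are skewed and are often near 0, so 7 of 42 cannot be set against that rate. Ngfr gave 3 of them. Saline 3d replicate 8 held 11002 normalized counts of Ngfr against 482 to 1030 in the others, MABsallo-VEGF 3d replicate 2 held 2384 against 265 to 590, and MABsallo-VEGF 7d replicate 11 held 1108 against 224 to 341. Ntrk2 stood at 3768 in MABsallo 7d replicate 13, against 459 to 843. Bdnf stood at 72.3 in saline 7d replicate 5, against 0 to 10.1. Gdnf stood at 14.9 in saline 7d replicate 2, where the others had no read, and at 10.6 in saline 3d replicate 10, below the 19.6 to 21.4 of the others.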

How the results depend on the processing

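The 16 differences of the 7 genes with a limma p below 0.05 in the reported setting were followed. Of their 316 alternatives, 281 kept direction and side of the threshold, 19 fell below it, 16 passed it and 0 reversed. Because that p-value picked them, few reversals were to be expected. Only 3 of the 16 were DEGs, so most of the 281 are uncalled differences that stayed uncalled. The calls lost were 0 of 19 for Nrg1, 8 of 19 for Gdnf and 11 of 19 for Ret, all between the days with MABsallo-VEGF. In the number of the 7 genes called, MABsallo vs saline at 3d had 0 and gave 1 (Ngfr) with edgeR, DESeq2, scaling to the same total and quantile normalization. Those settings called 1342, 1920, 2123 and 2228 of all genes, in that order, against 1997. MABsallo-VEGF vs saline at 3d had 0 and gave 2 (Nrg1 and Ret) with sample quality weights and without saline 3d replicate 6 and MABsallo-VEGF 3d replicate 4, settings that called 1497 and 2213 of all genes against 5. MABsallo at 3d vs 7d had 0 and gave 1 (Ntf3) with DESeq2. MABsallo-VEGF at 3d vs 7d had 3 and gave 1 (Nrg1) with edgeR and without the samples low in urothelial genes. The interaction of day with MABsallo-VEGF had 0 and gave 1 (Nrg1) with weights and without the first pair of samples, with 376 and 585 of all genes called against 0.

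Leaving out 1 sample gave 0 to 1 in MABsallo-VEGF vs saline at 3d (Ret, without MABsallo-VEGF replicate 4, with 1258 of all genes called against 5). Between the days it gave 0 to 1 with saline (Gdnf, without saline 7d replicate 2, with 281 called against 520). With MABsallo it gave 0 to 2 (Ntf3 without MABsallo 3d replicate 1, Bdnf and Ret without MABsallo 7d replicate 9). Those 2 settings called 3117 and 3719 of all genes against 3751. With MABsallo-VEGF it gave 1 to 3, with 1 (Nrg1) without 3d replicate 2, 7d replicate 7 or 7d replicate 11. There 1746, 2050 and 1951 of all genes were called against 2497. The cause of these changes was not tested.

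Replicate numbers 1 to 4 are shared by both cell groups at 3d. Their deviations correlated at r = 0.222, 0.15, 0.073 and 0.25, under 0.1 for number 3, and number 3 of each group correlated best with another number (for MABsallo by 0.079 against 0.073). Each of the other numbers correlated best with the same number of the other group. Correlations between different numbers ran from -0.2247 to 0.1998, most of them negative, while all of those between equal numbers were positive. Samples of equal number were nevertheless treated as sharing only a number, and a shared batch was not tested. With the replicate number as a block MABsallo-VEGF vs MABsallo at 3d called 0 of 7, as without it. The blocked fit called 0 of 16606 genes, as did the fit of the compared groups alone without the block. The 0 of 7 therefore cannot show what the block changed. Gdnf and Ret, with 3 reads or fewer in many samples, are limited by depth.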
